A study of Mus musculus with 11 samples.

Results

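Mouse 2-cell embryos made by round spermatid injection (ROSI) were compared, gene by gene, with 2-cell embryos made by intracytoplasmic sperm injection (ICSI). The libraries were taken by their labels, 3 of ROSI and 3 of ICSI 2-cell embryos out of 11 libraries in the study. The other 5 libraries were zygotes (2 after ROSI and 3 after ICSI), which entered the model for the estimate of the spread and served to sort genes by their level before the 2-cell stage. All embryos were of the C57BL/6 strain, and stranded SMART-seq libraries were prepared from total RNA of embryos. In ROSI the oocyte receives a round spermatid, a haploid germ cell that has not yet exchanged its histones for protamines, and in ICSI it receives a mature sperm. ROSI embryos were treated for 1 to 2 h with 5 mM strontium chloride in CZB medium without calcium, which activates the oocyte, before culture in KSOM, while ICSI embryos went into KSOM directly. The type of injected cell and this activation step therefore cannot be told apart. The labels give neither the time of collection nor the number of embryos per library, and do not say that libraries came from separate experiments. The p-values therefore measure the spread between libraries, pooled over zygotes and 2-cell embryos, and this spread may be technical. The title of the study names paternally inherited H3K27me3, a repressive histone mark, and genome activation after ROSI as its subject.

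The mouse embryo is transcribed weakly in the late zygote and strongly from the 2-cell stage on, in what are called the minor and major waves of genome activation. Transcripts stored by the oocyte are degraded over the same period, so that a 2-cell embryo holds a mixture of old and new RNA. Early products of activation include the Zscan4, Tcstv, Obox and PRAME families, and the major wave brings genes for ribosome assembly, translation, RNA processing and protein turnover. A bulk measurement cannot tell fewer cells with a transcript from less of it per cell, and TPM, the unit used here, is scaled to the same total in each library, so that a lower TPM need not mean less transcript per embryo.

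Recovered reads, in units of 1000000, were 23.0, 22.7 and 20.5 for ROSI replicates 1 to 3 and 8.48, 30.1 and 32.9 for ICSI replicates 1 to 3, and 3 reads on a gene of 2 kb were worth 0.110 to 0.396 TPM. ICSI replicate 1 was thus the shallowest library and had values above 0 for 23409 genes, against 26168 to 31388 in the others. On the first principal component, which took 33.97% of the variance, the ROSI libraries lay at 30.5 to 37.7 and the ICSI libraries at -66.6 to -13.5, with ICSI replicate 1 farthest out. Markers of 2-cell embryos were present in all 6 libraries, and levels of Zfp352 were 123, 155 and 161 TPM after ROSI and 266, 231 and 238 TPM after ICSI, against means of 12.8 TPM in ROSI zygotes and 8.23 TPM in ICSI zygotes. Levels of Obox3 were 43.3, 68.5 and 65.7 TPM after ROSI and 101, 109 and 95.3 TPM after ICSI, against means of 0.846 TPM in ROSI zygotes and 0.847 TPM in ICSI zygotes. Cdx2, of the later trophectoderm, reached at most 0.700 TPM. Of 8 cumulus cell markers 3 were tested and none was called. Their summed level was 3.80 to 4.68 TPM after ROSI and 5.83 to 6.07 TPM after ICSI, without overlap, and its part in the results was not tested. Summed levels of 6 blood cell markers were 3.91 to 5.34 and 3.63 to 7.15 TPM. Those of 12 markers of somatic testis cells were 31.1 to 36.4 and 37.7 to 47.2 TPM, and neither list had a called gene. Gm23935, annotated as a microRNA, took 23.7%, 17.7% and 12.7% of TPM in the ROSI libraries and 17.6%, 16.2% and 16.2% in the ICSI libraries. Which RNA its reads stem from was not tested. The part of Gm23935 in the differences of other genes was not tested beyond the scalings given with the counts.

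Of 21938 genes tested with limma on the scale of log2(TPM + 1), 1082 were higher (4.93%) and 1005 were lower (4.58%) in ROSI than in ICSI 2-cell embryos at a Benjamini-Hochberg adjusted p under 0.05, which together are 9.51% of genes. These are the background shares over all genes, beside which the counts of each gene list below are to be read. Among the 13928 protein-coding genes, which make up most lists, 6.38% were higher and 5.6% were lower. Shares also differed with level, as given below, and the lists were not matched to genes of like level. A difference of at least 2-fold on this scale was found for 297 of the higher genes (1.35% of genes tested) and 163 of the lower genes (0.743%). The 3 ROSI libraries lay above all 3 ICSI libraries for 3389 genes (15.4%) and below them for 2592 genes (11.8%). Higher genes made up 51.8% of the calls, 30.7% under median-ratio scaling between libraries and 62.5% when TPM were recomputed over protein-coding genes. The balance of the directions thus depended on the scale, while the median over all genes moved only between -0.030 and 0.101. The number of calls rested on the 11-library estimate of the spread: with the 6 2-cell libraries fitted alone, 49 genes were higher and 36 lower, and 4668 genes had an unadjusted p under 0.05. Without 1 library the calls numbered 1551, 918 and 2157 (ROSI replicates 1 to 3 left out in turn) and 1075, 1059 and 1736 (ICSI replicates 1 to 3). Genes named below passed in each of these 6 fits unless an adjusted p from 1 of them is given, except Brdt, Psme4, Dppa2, H2-K1, H2-Q7, Acads, Tomm70a and Tomm20, for which these fits were not examined. Series of 6 list counts below follow that order of libraries left out. A difference is always the ROSI mean minus the ICSI mean on the log2(TPM + 1) scale, which understates the change of low genes.

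**Figure D1:**
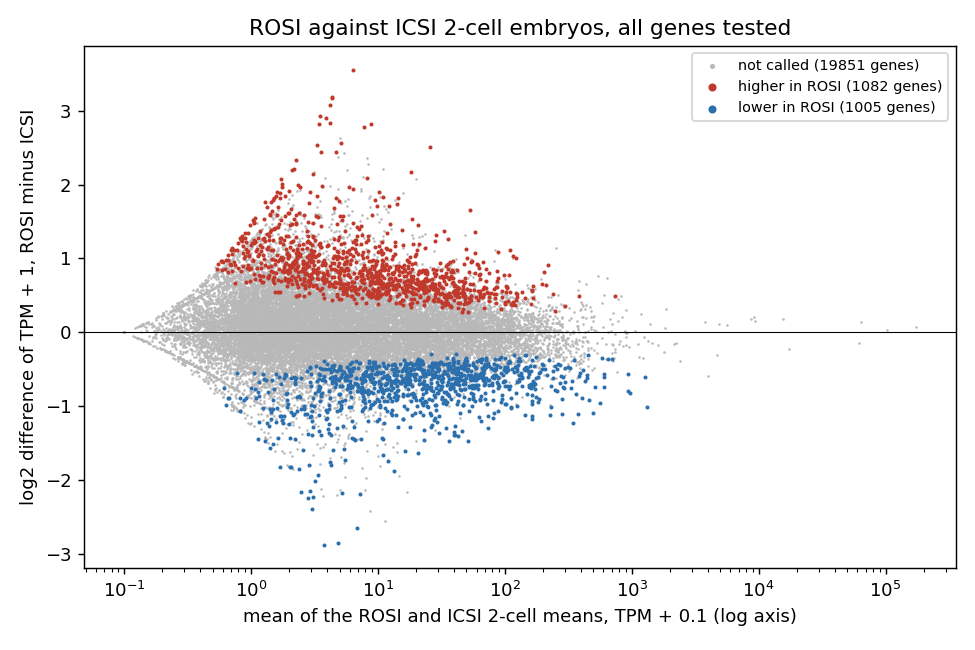
Each point is 1 of the 21938 genes tested, with the mean level of the ROSI and ICSI 2-cell groups in TPM + 0.1 on a log axis and the log2 difference (ROSI minus ICSI) on the vertical axis. Among genes averaging over 100 TPM, 36 were called higher (red) and 138 lower (blue), and the differences above 2 lie among genes of low level.

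The share of genes called in each direction differed with the level that genes had in the zygote. Among 10111 genes averaging at least 5 TPM in 2-cell embryos, 6.46% were higher and 8.13% were lower after ROSI. Of the 1637 genes over 100 TPM in zygotes, a stage at which most RNA still stems from the oocyte, 39 were higher (2.38%) and 297 were lower (18.1%), with a median difference of -0.163. Of the 1262 genes under 1 TPM in zygotes, whose 2-cell transcripts appeared after that stage, 105 were higher (8.32%) and 44 were lower (3.49%), with a median of 0.142. The 2624 genes at 1 to 10 TPM resembled the latter, with 228 higher (8.69%), 71 lower (2.71%) and a median of 0.147. The 4588 genes at 10 to 100 TPM lay between the extremes, with 281 higher (6.12%), 410 lower (8.94%) and a median of -0.031. The median of the most abundant zygotic class lay 0.115 to 0.241 below that of all genes in the alternative analyses, and those of the 2 lowest classes lay above it in each. Counts were less stable: under median-ratio scaling the class under 1 TPM held 103 higher and 99 lower genes, and with ROSI replicate 2 left out it held 38 and 31. In the class over 100 TPM lower genes outnumbered higher ones by 190 to 44, 147 to 15 and 445 to 22 without ROSI replicates 1 to 3, and by 189 to 17, 147 to 22 and 233 to 30 without ICSI replicates 1 to 3. The zygote libraries entered the spread but not the means of the 2-cell comparison, and ROSI and ICSI zygotes gave a second comparison. There, 771 of the 1005 lower genes (76.7%) also had a lower ROSI mean, against 61.9% of all genes tested, and 499 of the 1082 higher genes (46.1%) had a higher one, against 36.3% of all.

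**Figure D2:**
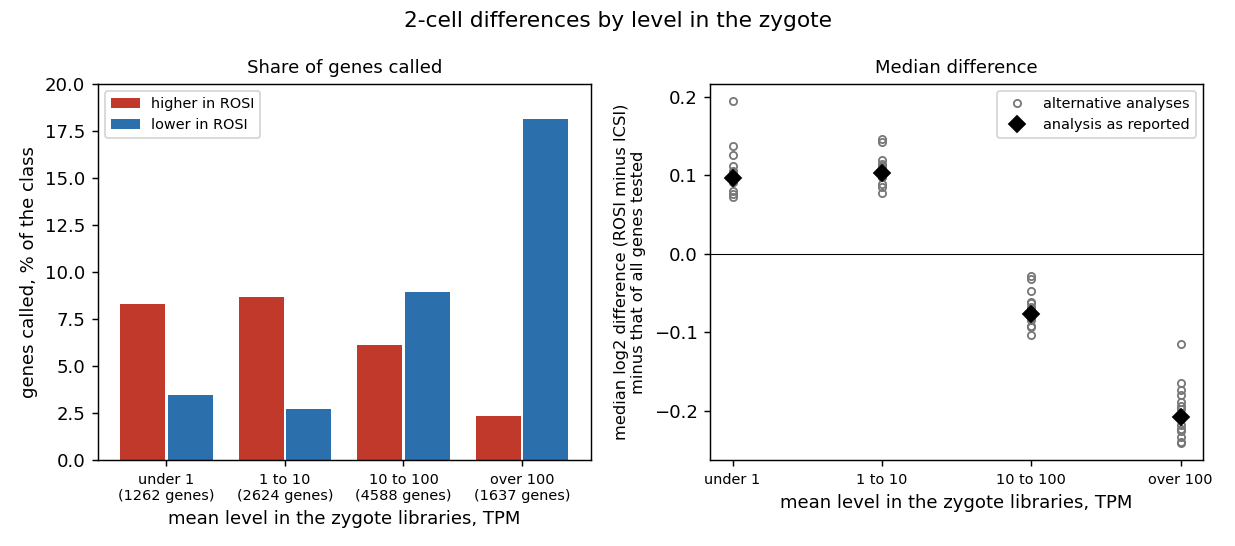
Left, percent of genes called higher (red) or lower (blue) after ROSI in 4 classes of genes by mean TPM over the 5 zygote libraries. Right, median log2 difference of each class minus that of all genes tested, with a diamond for the analysis as reported and an open circle for each of 18 alternatives. Lower calls rise from 2.71% at 1 to 10 TPM to 18.1% over 100 TPM.

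Bases upstream of the start of 6 genes that differed are shown because they hold, in capitals, the motifs whose share differed most between promoters of higher and lower genes. The sequences are from RefSeq on GRCm38.p6, read 5′ to 3′ on the strand of the gene and printed around the first match in the window described below, and the genes were chosen with the shares known. Psma4, a subunit of the core particle of the proteasome, and Igf2r, a maternally expressed imprinted receptor, were higher after ROSI and hold the E-box CACGTG.
Psma4 (chr9:54950679-54950764, plus strand): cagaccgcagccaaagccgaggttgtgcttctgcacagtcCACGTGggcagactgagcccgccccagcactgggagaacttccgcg
Igf2r (chr17:12769707-12769796, minus strand): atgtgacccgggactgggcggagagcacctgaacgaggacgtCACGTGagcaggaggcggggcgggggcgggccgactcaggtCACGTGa
Eif3l, a subunit of translation initiation factor eIF3, and Psmc1, an ATPase of the proteasome base, were also higher and hold the ETS motif CCGGAAGT on the opposite strand, where it reads ACTTCCGG.
Eif3l (chr15:79075147-79075222, plus strand): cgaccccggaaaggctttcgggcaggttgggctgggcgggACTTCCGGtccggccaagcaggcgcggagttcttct
Psmc1 (chr12:100110133-100110201, plus strand): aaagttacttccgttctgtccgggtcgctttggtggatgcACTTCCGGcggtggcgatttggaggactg
The long noncoding RNA C86187 and Oog3, an oogenesin of the PRAME family, were lower and hold the TATA box TATAAA close to the start.
C86187 (chr7:46975912-46975976, minus strand): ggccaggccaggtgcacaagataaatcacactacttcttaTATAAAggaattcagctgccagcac
Oog3 (chr4:144162652-144162720, minus strand): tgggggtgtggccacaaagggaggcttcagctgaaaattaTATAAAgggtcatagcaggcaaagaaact

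A promoter of 250 bases before to 50 bases after the start was found for 11904 of the genes tested, 734 of the higher and 638 of the lower ones, and each motif was searched on both strands. The E-box CACGTG was present in 13.2% of promoters of higher genes, 7.84% of those of lower genes and 9.47% of all tested, against 7.24% of all 27025 promoters of the table. The ETS motif CCGGAAGT was present in 8.72%, 4.08%, 7.32% and 4.0% in the same order, and the TATA box TATAAA in 6.13%, 10.7%, 8.08% and 14.2%. Shares were closer for CCAAT, bound by NFY (37.2% of higher, 37.3% of lower, 39.2% of tested), for GGATTA, the motif of Otx and Obox type homeodomains (5.86%, 6.27% and 6.19%), for the cyclic AMP response element TGACGTCA (2.59%, 2.19% and 2.93%) and for the NRF1 motif (1.5%, 1.1% and 1.85%). The motif of Dux, a factor of the early 2-cell program, was found in the window of 1 gene tested. These shares are descriptions without a test.

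The 3 largest differences among higher protein-coding genes of at least 5 TPM in ROSI embryos belonged to spermatid transcripts. Crisp2, which encodes a protein of the acrosome and sperm tail, was at 9.91, 6.28 and 9.44 TPM after ROSI and 0, 0.0913 and 0 TPM after ICSI. Smcp, for the capsule of sperm mitochondria, was at 12.1, 5.22 and 8.11 TPM after ROSI and listed at 0 in all 3 ICSI libraries, with 119, 47 and 61 recovered reads after ROSI and 0, 0 and 0 after ICSI. Both genes therefore separated the groups completely, with differences of 3.19 (SE 0.30, adjusted p = 0.00234) for Crisp2 and 3.18 (SE 0.35, adjusted p = 0.00323) for Smcp. The latter, against a group at 0, depends on the pseudocount. Odf1, a structural protein of the sperm tail, stood at 8.65, 4.50 and 5.6 TPM after ROSI and 0, 0.0754 and 0.662 TPM after ICSI, a difference of 2.54 (SE 0.29, adjusted p = 0.00323). Of 77 spermatid genes 57 passed the filter on low values, and 12 of these were higher and 2 lower, with a median of 0.422 against 0.045 for all genes. Members near 0 after ICSI could pass the filter only through ROSI libraries, so these counts are not support for a shift of the list. By role, 6 of 23 genes of the tail and mitochondrial sheath were higher and 1 lower. In the acrosome 2 of 7 genes were higher, and 3 of 19 enzymes and chaperones. Of 8 chromatin genes 1 was higher and 1 lower. The summed level of the acrosomal genes was 18.0, 17.7 and 21.3 TPM after ROSI and 3.76, 4.98 and 5.28 TPM after ICSI. Crisp2 was among these genes. Sums of the enzymes and chaperones were also separate (80.1, 107 and 95.6 against 59.4, 71.7 and 66.45 TPM). Those of the tail and sheath overlapped (112, 101 and 122 against 98.5, 108 and 102 TPM), as did those of the whole list (366, 375 and 434 against 375, 435 and 398 TPM). Chromatin sums were lower in each ROSI library (156, 149 and 195 against 213, 250 and 225 TPM). Of the chromatin genes the higher one was Tnp1, a transition protein, at 4.03, 1.86 and 1.67 TPM after ROSI and 0, 0.191 and 0.167 TPM after ICSI. Tnp1 was also called in zygotes, with a difference of 2.19 (adjusted p = 0.0207). So were Crisp2, with 3.38 (adjusted p = 0.0102), and Smcp, with 3.63 (adjusted p = 0.0102), both larger than at the 2-cell stage. Odf1 was not called in zygotes, with 1.46 (adjusted p = 0.148). The lower chromatin gene was Brdt, a bromodomain protein of the male germ line, at 141, 143 and 184 TPM after ROSI and 211, 245 and 221 TPM after ICSI, which made up most of the summed level of the chromatin genes. Without ROSI replicates 1 to 3 and ICSI replicates 1 to 3 in turn, 11, 8, 9, 8, 8 and 9 genes of the list were higher. Of 5 spermatocyte markers only Sycp3, of the axis of meiotic chromosomes, was called, at 63.1, 75.6 and 81.6 TPM after ROSI and 46.2, 51.8 and 49.9 TPM after ICSI, a difference of 0.56 (SE 0.13, adjusted p = 0.0248), and without ROSI replicate 2 its adjusted p was 0.0786.

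Dbil5, a spermatid gene of the acyl-CoA binding family, was at 7.19, 9.26 and 8.36 TPM after ROSI and 1.36, 1.86 and 3.40 TPM after ICSI, a difference of 1.57 (SE 0.35, adjusted p = 0.0233), with an adjusted p of 0.0756 without ICSI replicate 1. Dbil5 averaged 20.7 TPM in ROSI zygotes and 2.60 TPM in ICSI zygotes, a difference of 2.54 (adjusted p = 0.0463) at that stage. Among the other genes with the largest differences, Tufm, the mitochondrial translation elongation factor, was at 16.2, 18.1 and 15.02 TPM after ROSI and 2.24, 5.02 and 4.27 TPM after ICSI. Idh2, the mitochondrial isocitrate dehydrogenase, was at 11.9, 15.6 and 14.4 TPM after ROSI and 2.96, 4.96 and 4.13 TPM after ICSI. In both genes each ROSI library lay above each ICSI library. The differences were 1.89 (SE 0.21, adjusted p = 0.00323) for Tufm and 1.59 (SE 0.19, adjusted p = 0.00323) for Idh2. Tufm averaged 20.7 TPM in ROSI zygotes and 19.5 TPM in ICSI zygotes, so each ROSI 2-cell library was nearer to both zygote means than any ICSI 2-cell library was. The Tufm values rest on 371, 379 and 263 recovered reads after ROSI and 18, 128 and 124 after ICSI. Uqcrb, a subunit of respiratory complex III, was at 27.5, 29.4 and 25.8 TPM after ROSI and 5.43, 11.1 and 11.3 TPM after ICSI, a difference of 1.53 (SE 0.24, adjusted p = 0.00681), against means of 76.2 TPM in ROSI zygotes and 78.98 TPM in ICSI zygotes. Cxadr, a junctional adhesion protein, was at 14.8, 16.1 and 21.5 TPM after ROSI and 2.93, 4.27 and 5.56 TPM after ICSI. Thy1, a surface glycoprotein, was at 3.96, 5.93 and 5.23 TPM after ROSI and 0.441, 0.473 and 0.929 TPM after ICSI. Neither gene had an ICSI library within the ROSI range, and their differences were 1.83 (SE 0.20, adjusted p = 0.00323) and 1.90 (SE 0.20, adjusted p = 0.00323). Thy1 averaged 0.228 TPM in ROSI zygotes and 0.138 TPM in ICSI zygotes, and passed the filter on low values only through ROSI 2-cell libraries. Ppp1r14a, an inhibitor of myosin phosphatase, differed by 2.10 (SE 0.39, adjusted p = 0.0123) and Ppp1r36 by 1.94 (SE 0.35, adjusted p = 0.0108). Rnf128, a membrane ubiquitin ligase, differed by 1.56 (SE 0.21, adjusted p = 0.00425). Tagln2, a transgelin that binds actin, differed by 1.52 (SE 0.20, adjusted p = 0.00425). Fads2, a fatty acid desaturase, differed by 1.68 (SE 0.34, adjusted p = 0.0159), with an adjusted p of 0.0534 without ROSI replicate 2. Fkbp11 differed by 1.57 (SE 0.33, adjusted p = 0.0184), with 0.0597 without ICSI replicate 2.

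**Figure D3:**
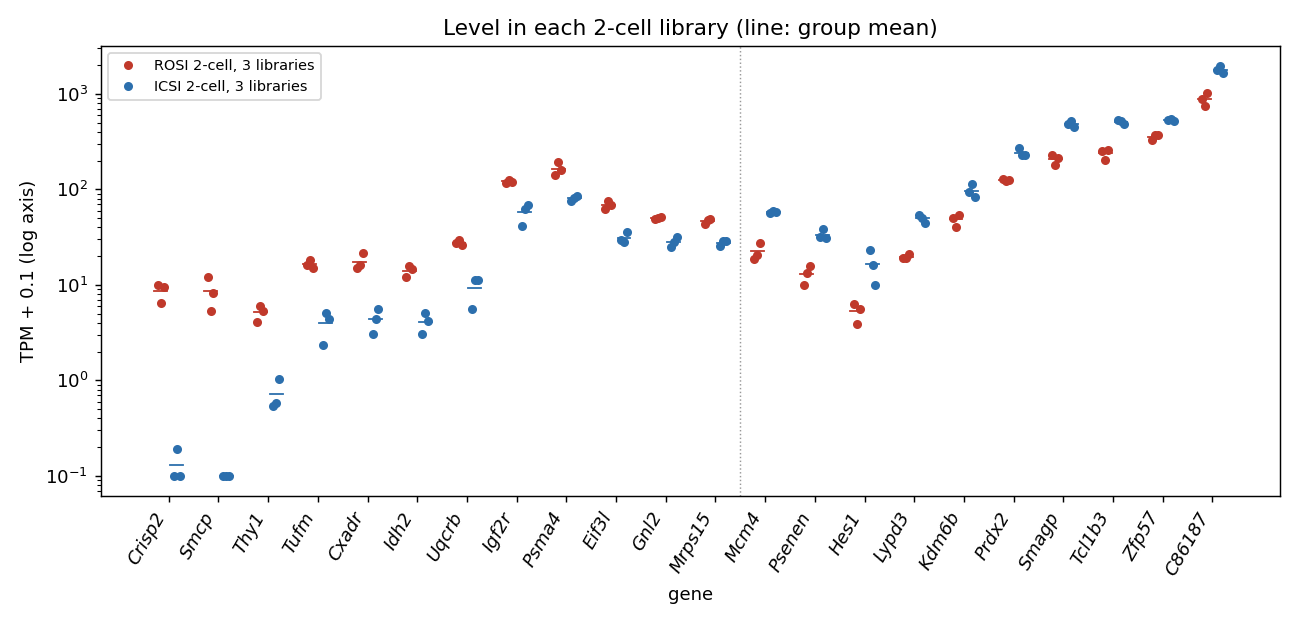
Level of 22 genes in each 2-cell library, as TPM + 0.1 on a log axis, with ROSI in red, ICSI in blue and a line at the mean of each group of 3. The 12 genes left of the dotted line were higher and the 10 on its right were lower after ROSI, and in each of the 22 the libraries of the groups do not overlap.

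Among abundant genes that were higher, Zfp936, a zinc finger protein, was at 226, 273 and 276 TPM after ROSI and 124, 149.7 and 165 TPM after ICSI. H2-Q6, a class I histocompatibility gene, was at 140.0, 162 and 147 TPM after ROSI and 55.2, 74.5 and 77.4 TPM after ICSI, and averaged 0.394 TPM in ROSI zygotes and 0.171 TPM in ICSI zygotes. Both were higher in each ROSI library than in any ICSI library, by 0.82 (SE 0.12, adjusted p = 0.00471) and 1.12 (SE 0.15, adjusted p = 0.00425). Dppa5a, an RNA-binding protein of pluripotent cells, reached 122, 186 and 165 TPM after ROSI and 81.05, 66.7 and 79.8 TPM after ICSI. Cd63, a tetraspanin of late endosomes, differed by 0.92 (SE 0.24, adjusted p = 0.0402). Impdh2, the rate-limiting enzyme of guanine nucleotide synthesis, differed by 0.66 (SE 0.17, adjusted p = 0.0399), Depdc7 by 0.63 (SE 0.16, adjusted p = 0.0388) and Rps19bp1 by 0.64 (SE 0.12, adjusted p = 0.0141). Without ROSI replicate 2 the adjusted p of these 4 was 0.125, 0.123, 0.124 and 0.0524, and Impdh2 passed in none of the 6 fits without a library. Genes of short or predicted transcripts rest on few reads. Gm44469 was higher with 17, 10 and 3 recovered reads after ROSI and 0, 0 and 0 after ICSI. Mir1957a was higher with 6, 3 and 4 recovered reads after ROSI and 0, 0 and 0 after ICSI.

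The proteasome degrades proteins marked with ubiquitin, among them maternal proteins of the oocyte. Of 45 proteasome genes tested, 11 were higher and 1 was lower, with a median difference of 0.310 against 0.045 for all genes. Psma4 of the alpha ring was at 140.1, 195 and 158 TPM after ROSI and 75.8, 81.6 and 85.1 TPM after ICSI, so the lowest ROSI library stood well above the highest ICSI library. The difference was 1.00 (SE 0.12, adjusted p = 0.00361). The 6 ATPases of the base, which unfold substrates, summed to 182, 176 and 174 TPM after ROSI and 120.3, 133 and 136 TPM after ICSI, and 4 of them were higher (0, 1, 2, 0, 1 and 3 without 1 library). Among the 8 beta ring genes, which hold the catalytic sites, none was called, and 2 of 7 alpha ring genes and 3 of 12 non-ATPase regulatory genes were higher. Of 12 activators and assembly factors 2 were higher, while Psme4, an activator of the nuclear proteasome, fell by 0.53. Psmc1 was at 51.8, 45.2 and 45.7 TPM after ROSI and 24.4, 31.02 and 34.1 TPM after ICSI, and its adjusted p was 0.0520 without ICSI replicate 1. The counts of higher proteasome genes were 8, 3 and 7 without ROSI replicates 1 to 3 and 2, 4 and 8 without ICSI replicates 1 to 3. The count was 0 with the 2-cell libraries fitted alone and 20 with TPM over protein-coding genes. Hspa4, a chaperone of the Hsp110 family, was at 79.98, 81.6 and 78.2 TPM after ROSI and 42.8, 49.3 and 53.4 TPM after ICSI. Hsp90ab1, the constitutive cytosolic Hsp90, was at 885, 893 and 837 TPM after ROSI and 575, 684 and 601 TPM after ICSI. Both were higher without overlap, by 0.71 (SE 0.11, adjusted p = 0.00651) and 0.49 (SE 0.09, adjusted p = 0.0129). Of the list, 5 of 22 chaperone genes in all were higher and none lower, against 0 higher and 2 lower of 20 genes of the integrated stress and unfolded protein responses. Without 1 library the higher chaperones numbered 4, 3, 5, 4, 5 and 4 and the lower genes of these responses 1, 1, 3, 2, 1 and 1.

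Ribosome assembly resumes with the first nucleolar transcription of the embryo. Of 65 ribosome biogenesis genes 13 were higher and none was lower, with a median of 0.189. Gnl2, a GTPase of large subunit assembly, was at 48.7, 50.3 and 51.5 TPM after ROSI and 24.7, 28.3 and 31.6 TPM after ICSI. Taf1c, a subunit of the selectivity factor of RNA polymerase I, was at 21.1, 28.6 and 21.1 TPM after ROSI and 9.61, 12.8 and 12.5 TPM after ICSI. Ubtf, the nucleolar factor that binds ribosomal DNA, was at 139.7, 151 and 146 TPM after ROSI and 87.5, 102 and 113 TPM after ICSI. All 3 were higher in every ROSI library than in any ICSI library, and the differences were 0.81 (SE 0.12, adjusted p = 0.00551), 0.96 (SE 0.17, adjusted p = 0.00978) and 0.54 (SE 0.10, adjusted p = 0.0133). Taf1c averaged 1.02 TPM in ROSI zygotes and 0.587 TPM in ICSI zygotes and Ubtf 4.77 TPM in ROSI zygotes and 4.60 TPM in ICSI zygotes, below their 2-cell levels. Gnl2 averaged 78.1 TPM in ROSI zygotes and 105 TPM in ICSI zygotes, above its 2-cell levels. RNA polymerase I and its factors counted 4 higher of 13 (3, 2, 3, 3, 2 and 4 without 1 library). The list had 6, 3 and 7 higher genes without ROSI replicates 1 to 3 and 6, 5 and 10 without ICSI replicates 1 to 3, and 6 higher against 3 lower under median-ratio scaling. Of 76 genes of the mitochondrial ribosome 12 were higher and 1 was lower, with a median of 0.206. Mrps15 was at 43.2, 47.8 and 48.5 TPM after ROSI and 25.4, 28.9 and 28.7 TPM after ICSI. Mrpl34 was at 62.97, 69.6 and 69.4 TPM after ROSI and 39.1, 33.9 and 40.4 TPM after ICSI. Again no library of 1 group lay within the range of the other, and the differences were 0.73 (SE 0.09, adjusted p = 0.00389) and 0.82 (SE 0.15, adjusted p = 0.0115). Higher genes of that list numbered 9, 4 and 7 without ROSI replicates 1 to 3 and 5, 7 and 11 without ICSI replicates 1 to 3. Under median-ratio scaling 8 were higher and 4 lower, and with TPM over protein-coding genes 25 were higher and 2 lower. Of 85 cytosolic ribosomal protein genes 5 were higher (2, 1, 2, 1, 2 and 3 without 1 library) and 1 lower. The share of higher genes, 5.88%, was near the background share, and that of lower genes was 1.18%. Ribosomal protein genes have processed copies elsewhere in the genome, and reads shared with these cannot be assigned with certainty.

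**Figure D4:**
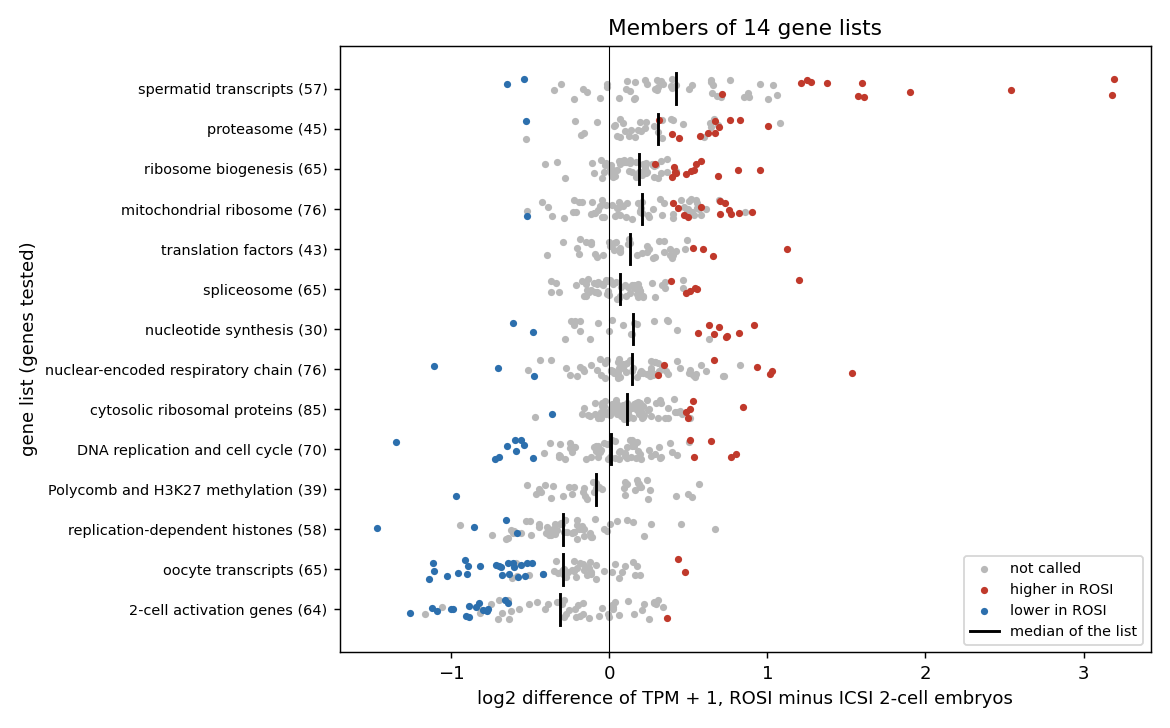
Log2 difference (ROSI minus ICSI) of each tested member of 14 gene lists, with called genes in red (higher) or blue (lower) and a black line at the median of the list. The proteasome, ribosome biogenesis and mitochondrial ribosome medians lie at 0.310, 0.189 and 0.206, and those of oocyte transcripts and 2-cell activation genes at -0.295 and -0.313.

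Of 43 translation factors 4 were higher and none lower. Eif3l was at 61.99, 75.4 and 68.2 TPM after ROSI and 29.4, 28.05 and 35.3 TPM after ICSI. Each ROSI library was well above each ICSI library, a difference of 1.12 (SE 0.15, adjusted p = 0.00425). The eIF3 subunits Eif3d and Eif3e differed by 0.65 (SE 0.14, adjusted p = 0.0203) and 0.53 (SE 0.12, adjusted p = 0.0211), with adjusted p of 0.0706 and 0.0649 without ROSI replicate 2. Hars, the histidyl-tRNA synthetase, was at 40.7, 40.9 and 39.3 TPM after ROSI and 19.1, 25.5 and 26.3 TPM after ICSI, 1 of 2 higher genes among 22 synthetases (3, 1, 2, 1, 1 and 2 without 1 library), with a difference of 0.76 (SE 0.13, adjusted p = 0.00795). Higher translation factors numbered 4, 1, 4, 3, 4 and 6 without 1 library. Under median-ratio scaling 4 were higher and 3 lower, and with TPM over protein-coding genes 14 were higher and 1 lower. Of 65 spliceosome genes 6 were higher and none lower, and 6, 2, 4, 3, 3 and 6 were higher without 1 library. The median of the list was 0.065, against 0.045 for all genes. Median-ratio scaling gave 5 higher and 4 lower of these, and TPM over protein-coding genes 9 higher and 3 lower. Lsm5, of the ring that binds U6 RNA, was at 25.9, 27.3 and 26.2 TPM after ROSI and 10.002, 11.1 and 11.9 TPM after ICSI. Prpf31, of the U4/U6.U5 particle, was at 26.6, 29.00 and 30.8 TPM after ROSI and 19.2, 18.3 and 20.8 TPM after ICSI. Both again separated the groups, by 1.20 (SE 0.23, adjusted p = 0.0143) and 0.54 (SE 0.09, adjusted p = 0.00928). Of 86 genes of RNA polymerase II and the general factors 5 were higher (5, 2, 2, 2, 3 and 3 without 1 library) and 4 were lower (1, 1, 7, 3, 1 and 2). Median-ratio scaling gave 4 higher and 14 lower of these, and TPM over protein-coding genes 13 higher and 6 lower. Ccnh, the cyclin of the kinase that phosphorylates the polymerase tail, was at 15.7, 18.8 and 19.6 TPM after ROSI and 8.08, 8.16 and 8.63 TPM after ICSI. Polr2m, a subunit-like regulator of the polymerase, was at 48.4, 60.2 and 43.7 TPM after ROSI and 17.1, 19.5 and 25.1 TPM after ICSI. By contrast Polr2c, a core subunit, was at 81.4, 76.99 and 83.1 TPM after ROSI and 112, 122 and 113 TPM after ICSI. The differences were 1.03 (SE 0.13, adjusted p = 0.00361), 1.27 (SE 0.16, adjusted p = 0.00361) and -0.52 (SE 0.10, adjusted p = 0.0135), with no overlap of libraries in any of the 3.

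Enzymes of nucleotide and one-carbon metabolism had 8 higher and 2 lower of 30 genes. Mthfd1, the cytosolic trifunctional folate enzyme, was at 37.8, 26.6 and 30.5 TPM after ROSI and 15.7, 17.6 and 18.7 TPM after ICSI. Mthfd2, its mitochondrial counterpart, was at 45.9, 44.7 and 58.03 TPM after ROSI and 73.3, 77.8 and 75.7 TPM after ICSI. The cytosolic gene was higher in each ROSI library and the mitochondrial one lower, with differences of 0.82 (SE 0.14, adjusted p = 0.00788) and -0.61 (SE 0.11, adjusted p = 0.0114). Gmps and Pfas, of purine synthesis, were higher by 0.63 (SE 0.10, adjusted p = 0.00741) and 0.75 (SE 0.14, adjusted p = 0.0128). Without ROSI replicate 2 the list had 4 higher genes, and 6 or 7 without any other library. Of 76 nuclear-encoded respiratory chain genes 7 were higher and 3 lower, among the latter Cox8a, of complex IV, at 232, 251 and 269 TPM after ROSI and 339, 348 and 361 TPM after ICSI. Without 1 library 5, 3, 5, 3, 3 and 6 of these were higher and 2, 1, 2, 1, 1 and 1 lower. The median of the respiratory chain list was 0.145, and median-ratio scaling gave 4 higher and 5 lower. With TPM over protein-coding genes 12 were higher and 4 lower. Of 41 genes of glucose and pyruvate use 5 were higher, and 6, 2, 3, 3, 3 and 4 without 1 library, and 1 was lower. Median-ratio scaling gave 5 higher and 6 lower of these, and TPM over protein-coding genes 9 higher and 4 lower. Hk1, a hexokinase, was at 4.61, 4.59 and 4.50 TPM after ROSI and 1.70, 2.39 and 2.08 TPM after ICSI, a difference of 0.87 (SE 0.16, adjusted p = 0.0128). Ldhb, the lactate dehydrogenase subunit stored by the oocyte, was at 177, 232 and 236 TPM after ROSI and 309, 303 and 294 TPM after ICSI, a difference of -0.50 (SE 0.11, adjusted p = 0.0214), with an adjusted p of 0.0633 without ICSI replicate 1. Prdx2, a peroxiredoxin that removes hydrogen peroxide, was at 128, 122 and 124 TPM after ROSI and 268, 230.2 and 227 TPM after ICSI, a difference of -0.95 (SE 0.08, adjusted p = 0.00199) without overlap of the groups.

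Of 65 oocyte transcripts 23 were lower and 2 were higher, with a median of -0.295. The share of lower genes was 35.38%, beside 18.1% in the class over 100 TPM in zygotes given above. The Tcl1, oogenesin and Omt2 genes, families expressed in oocytes and early embryos, counted 9 lower of 12, with a median of -0.858. They summed to 3030.2, 2958 and 3629 TPM after ROSI and 5209, 5709 and 5506 TPM after ICSI. Tcl1b3 was at 255, 204 and 255 TPM after ROSI and 528, 522 and 487 TPM after ICSI. Tcl1b4 was at 98.9, 90.5 and 119 TPM after ROSI and 214, 221 and 245 TPM after ICSI. Tcl1 itself was at 328, 342 and 479.9 TPM after ROSI and 678, 773 and 755 TPM after ICSI. In all 3 the highest ROSI library was below the lowest ICSI library, with differences of -1.11 (SE 0.10, adjusted p = 0.00199), -1.14 (SE 0.15, adjusted p = 0.00421) and -0.96 (SE 0.14, adjusted p = 0.00502). These genes lie next to each other and are alike in sequence, so reads may be split between them. Of 9 zona and secreted factors 5 were lower (2, 2, 4, 2, 2 and 4 without 1 library). Of 16 genes of the subcortical complex and the Nlrp family 5 were lower (5, 4, 7, 4, 5 and 5). Zfp57, which protects imprints and was present at 3164 TPM in ROSI zygotes and 3359 TPM in ICSI zygotes, was at 328, 367 and 373 TPM after ROSI and 532, 544 and 520.5 TPM after ICSI, a difference of -0.58 (SE 0.10, adjusted p = 0.00926). Without ROSI replicates 1 to 3 the list had 17, 16 and 27 lower genes and without ICSI replicates 1 to 3 it had 17, 18 and 21, and fitted alone 3.

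Other lower genes were named for a large difference or a high level. C86187, a long noncoding RNA, was at 883, 748 and 1032 TPM after ROSI and 1758, 1936 and 1638 TPM after ICSI. Smagp, a small transmembrane glycoprotein, was at 229, 182 and 214 TPM after ROSI and 488, 515 and 455 TPM after ICSI. Lypd3, a surface protein of the Ly6 family, was at 18.8, 18.96 and 20.8 TPM after ROSI and 53.8, 50.04 and 44.5 TPM after ICSI. Libraries did not overlap in any of the 3, with differences of -1.01 (SE 0.14, adjusted p = 0.00425), -1.22 (SE 0.11, adjusted p = 0.00199) and -1.29 (SE 0.12, adjusted p = 0.00234). Psenen, a subunit of gamma-secretase, was at 9.82, 13.1 and 15.8 TPM after ROSI and 31.3, 38.2 and 30.9 TPM after ICSI. Hes1, a repressor activated by Notch, which gamma-secretase releases, was at 6.24, 3.84 and 5.54 TPM after ROSI and 22.9, 16.2 and 9.92 TPM after ICSI. Their differences were -1.33 (SE 0.18, adjusted p = 0.00425) and -1.43 (SE 0.27, adjusted p = 0.0122), and the ICSI libraries of Hes1 spread more than those of Psenen. Adm2, a peptide hormone, was at 47.5, 45.1 and 43.9 TPM after ROSI and 107, 102 and 93.7 TPM after ICSI. Ceacam20, an adhesion molecule, differed by -1.13 (SE 0.16, adjusted p = 0.0046) and Cldn34b2, a claudin, by -1.18 (SE 0.17, adjusted p = 0.00502). Duoxa2, a maturation factor of an oxidase, differed by -1.38 (SE 0.26, adjusted p = 0.0126) and Il17c, a cytokine, by -1.73 (SE 0.32, adjusted p = 0.0117). Spin1, a histone reader, fell by 0.61 and the noncoding RNA Gm1965 by 0.80, with an adjusted p of 0.137 without ICSI replicate 2 and 0.0869 without ROSI replicate 2. Siah2, Rbm38, Oog3 and Tox2 fell by 0.74, 0.74, 0.60 and 1.27. Their highest adjusted p without a library was 0.0727 (ROSI replicate 2), 0.0506 (ROSI replicate 2), 0.0799 (ICSI replicate 2) and 0.0743 (ROSI replicate 2).

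Of 64 tested genes of early genome activation 15 were lower and 1, Dppa2, was higher, with a median of -0.313. Tdpoz3 was at 16.5, 11.46 and 18.4 TPM after ROSI and 38.96, 40.99 and 33.5 TPM after ICSI. AF067061 of the Tcstv family was at 12.6, 15.5 and 21.01 TPM after ROSI and 38.2, 33.4 and 36.6 TPM after ICSI. Gm12794 of the PRAME family was at 36.1, 24.5 and 33.8 TPM after ROSI and 64.6, 61.9 and 60.9 TPM after ICSI. No ROSI library of these 3 reached the lowest ICSI library. By family, 3 of 6 Zscan4, 3 of 4 Tcstv, 1 of 5 Tdpoz, 1 of 6 Obox and 4 of 11 PRAME genes were lower, and none of 5 Usp17-like genes was called. Without 1 library the lower Zscan4 genes numbered 1, 1, 5, 1, 1 and 2, the lower Obox genes 0, 0, 4, 0, 0 and 0 and the lower PRAME genes 2, 1, 4, 2, 2 and 2. Summed levels of the Tcstv genes were 261, 388 and 399.8 TPM after ROSI and 546, 597 and 571 TPM after ICSI, and those of the Obox genes 666, 747 and 901 TPM against 731, 803 and 816 TPM. The Tcstv sums thus did not overlap between groups and the Obox sums did. Members of these families are near-identical copies, and reads shared between them cannot be assigned with certainty. Lower genes of the list numbered 9, 7 and 23 without ROSI replicates 1 to 3 and 8, 7 and 10 without ICSI replicates 1 to 3, and 1 fitted alone.

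Calls among cell cycle genes went both ways. Mcm4, a subunit of the replicative helicase, was at 18.8, 20.6 and 27.5 TPM after ROSI and 56.4, 58.9 and 57.5 TPM after ICSI. Mcm3 of the same ring was at 34.3, 37.7 and 33.5 TPM after ROSI and 52.6, 59.3 and 55.1 TPM after ICSI. Mcm5, a further member, was at 11.48, 11.9 and 12.1 TPM after ROSI and 16.1, 20.5 and 18.8 TPM after ICSI. The 3 genes were lower in each ROSI library than in any ICSI library, with differences of -1.35 (SE 0.13, adjusted p = 0.00256), -0.65 (SE 0.09, adjusted p = 0.00425) and -0.60 (SE 0.11, adjusted p = 0.0121). Of 44 licensing and fork genes 5 were lower and 2 higher, and of 70 genes on the whole list 9 were lower (6, 5, 9, 7, 6 and 7 without 1 library) and 5 higher (3, 2, 4, 3, 3 and 5). Wee2, the oocyte kinase that holds meiotic arrest, was at 158, 152 and 219 TPM after ROSI and 294, 296 and 274 TPM after ICSI. Ttk, a kinase of the spindle checkpoint, was at 25.05, 30.7 and 31.7 TPM after ROSI and 47.5, 55.7 and 44.5 TPM after ICSI, and both genes were lower without overlap. Among nuclear transport genes, 5 of 46 were lower (4, 3, 6, 5, 3 and 5 without 1 library) and 4 higher (3, 1, 2, 0, 1 and 3). Nup214 and Nup62, of the nuclear pore, differed by -0.71 (SE 0.13, adjusted p = 0.0116) and -0.61 (SE 0.11, adjusted p = 0.0116). Kpna7, the oocyte importin alpha, differed by -0.63 (SE 0.09, adjusted p = 0.0056). Decapping and decay genes split as well, with 6 of 58 higher (5, 3, 4, 4, 5 and 4 without 1 library) and 5 lower (2, 1, 9, 3, 1 and 4). Edc3 and Dcp1a, both of the decapping complex, differed by 1.20 (SE 0.21, adjusted p = 0.00943) and -0.97 (SE 0.18, adjusted p = 0.0135). Zfp36l2, which binds AU-rich elements, differed by 1.20 (SE 0.19, adjusted p = 0.00688). Exosc3, of the RNA exosome, differed by 0.85 (SE 0.14, adjusted p = 0.00795). Linker histone Hist1h1e was at 32.00, 18.3 and 30.7 TPM after ROSI and 92.5, 53.5 and 83.2 TPM after ICSI, and 2 of 5 linker and 2 of 53 core histone genes were lower and none higher. Without 1 library 4, 3, 4, 2, 2 and 5 histone genes were lower. Histone messages mostly lack a poly(A) tail and have many copies, so their values depend on the library kit and on the assignment of reads.

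Of 39 Polycomb and H3K27 methylation genes 1 was lower and none higher, and 1, 1, 3, 1, 1 and 1 were lower without 1 library. That gene was Kdm6b, an H3K27 demethylase, at 50.4, 40.4 and 54.4 TPM after ROSI and 92.8, 113 and 82.7 TPM after ICSI, with each ROSI library below each ICSI library and a difference of -0.97 (SE 0.15, adjusted p = 0.00681). Kdm6a, the X-linked demethylase of the same mark, was at 28.1, 28.5 and 37.5 TPM after ROSI and 33.01, 37.5 and 32.9 TPM after ICSI, with overlapping groups and an adjusted p of 0.518. Ezh2, Eed and Suz12, of the complex that writes H3K27me3, differed by -0.24 (SE 0.10, adjusted p = 0.152), -0.25 (SE 0.12, adjusted p = 0.192) and -0.08 (SE 0.11, adjusted p = 0.672), and none passed. Ezh2 passed in 1 of the 18 alternatives. The Polycomb count depended on the scale, with 10 lower genes under median-ratio scaling and 3 under quantile normalization. With TPM over protein-coding genes 2 were higher and 3 lower. Of 9 H3K9 demethylases 4 were higher and none lower, with a median of 0.396. Kdm4d was at 4.35, 4.61 and 3.69 TPM after ROSI and 1.85, 1.22 and 1.48 TPM after ICSI. Jmjd1c was at 12.2, 15.3 and 13.5 TPM after ROSI and 6.55, 7.35 and 7.60 TPM after ICSI, higher by 1.05 (SE 0.18, adjusted p = 0.00928) and 0.84 (SE 0.12, adjusted p = 0.00507) with no overlap. Kdm1a differed by 0.40 (SE 0.08, adjusted p = 0.0183) with an adjusted p of 0.0590 without ICSI replicate 2. Leaving out ROSI replicate 2 or ICSI replicate 2 left 2 higher demethylases. Mbd1, a reader of methylated DNA, was at 5.62, 8.45 and 7.36 TPM after ROSI and 3.44, 3.01 and 2.64 TPM after ICSI, a difference of 1.01 (SE 0.16, adjusted p = 0.0074). Of 17 genes of DNA methylation and imprint protection, 2 were higher, Mbd1 and Zfp445, and 2 lower, Zfp57 and Tet3. Without 1 library 2, 1, 1, 1, 1 and 2 were higher and 1, 1, 4, 1, 1 and 1 lower. The adjusted p of Zfp445 and Tet3 was 0.0804 and 0.126 without ROSI replicate 2. Of 32 classical imprinted genes 5 were higher (5, 3, 3, 3, 3 and 5 without 1 library) and 2 lower (1, 0, 4, 0, 0 and 1). Their median was -0.119, against 0.045 for all genes. It was -0.295 for the 16 paternally expressed and 0.065 for the 16 maternally expressed genes. Igf2r was at 117, 126 and 119.7 TPM after ROSI and 41.5, 62.7 and 68.7 TPM after ICSI. Impact, a translational regulator expressed from the paternal allele, was at 9.35, 10.03 and 8.31 TPM after ROSI and 3.23, 3.13 and 4.78 TPM after ICSI. Both were higher without overlap, by 1.09 (SE 0.16, adjusted p = 0.0053) and 1.13 (SE 0.15, adjusted p = 0.00425). Of 10 genes imprinted by maternal H3K27me3, 2 were higher, Gab1 and Btg3, and none lower, while the median was -0.116. Gab1 and Btg3 differed by 0.68 (SE 0.15, adjusted p = 0.0244) and 0.64 (SE 0.16, adjusted p = 0.0309). Without ICSI replicate 1 or 2 their adjusted p was 0.0692 and 0.0825, and each passed in 1 of the 6 fits without a library. Median-ratio scaling gave 4 higher and none lower of the list. Quantile normalization and TPM over protein-coding genes each gave 4 higher and 2 lower.

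Of 124 regulators of later development, which Polycomb marks cover in many cells, 56 passed the filter, 4 were higher and 5 lower. Without 1 library 3, 2, 4, 4, 2 and 3 were higher and 7, 2, 6, 2, 3 and 5 lower. Sox11, of neural and mesenchymal progenitors, was at 4.13, 3.27 and 3.52 TPM after ROSI and 0.890, 0.632 and 0.484 TPM after ICSI. Irx2, an Iroquois homeobox factor, was at 5.79, 6.22 and 7.40 TPM after ROSI and 1.77, 3.63 and 1.98 TPM after ICSI. Both were higher without overlap, by 1.48 (SE 0.18, adjusted p = 0.00354) and 1.14 (SE 0.21, adjusted p = 0.0118). Sox11 was under 1 TPM in every ICSI 2-cell library, and its ROSI libraries were enough to pass the filter. Its call is therefore not support for a shift of the list. Pou5f1, the core factor of pluripotency, was at 77.7, 72.96 and 96.1 TPM after ROSI and 151, 135 and 122 TPM after ICSI, a difference of -0.73 (SE 0.11, adjusted p = 0.00681). Tfcp2l1, a factor of naive pluripotency, was at 3.50, 4.47 and 4.54 TPM after ROSI and 1.96, 1.31 and 1.75 TPM after ICSI, a difference of 0.95 (SE 0.16, adjusted p = 0.00893). Il6st, the gp130 receptor chain, differed by -0.53 (SE 0.09, adjusted p = 0.00926). These 3 genes also separated the groups completely. Of 28 p53 targets and damage genes 1 was higher and 1 lower. The higher one was Btg1, an antiproliferative gene, with a difference of 0.78 (SE 0.13, adjusted p = 0.0074). The lower one was Plk3, a kinase of the stress response, with -0.68 (SE 0.18, adjusted p = 0.0412) and an adjusted p of 0.124 without ICSI replicate 2. Y-linked genes were 7 in number among the genes tested and none was called.

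The ROSI minus ICSI difference was also compared between the 2-cell stage and the zygote by a term for the difference of differences in the same model. Of 21938 genes 4 passed for that term and 3303 had an unadjusted p under 0.05. None of the genes chosen by the naming rule was among the 4, and their lowest adjusted p was 0.064. None of those genes is therefore shown to differ between ROSI and ICSI at the 2-cell stage alone, and the term was not examined for other genes mentioned.

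**Figure D5:**
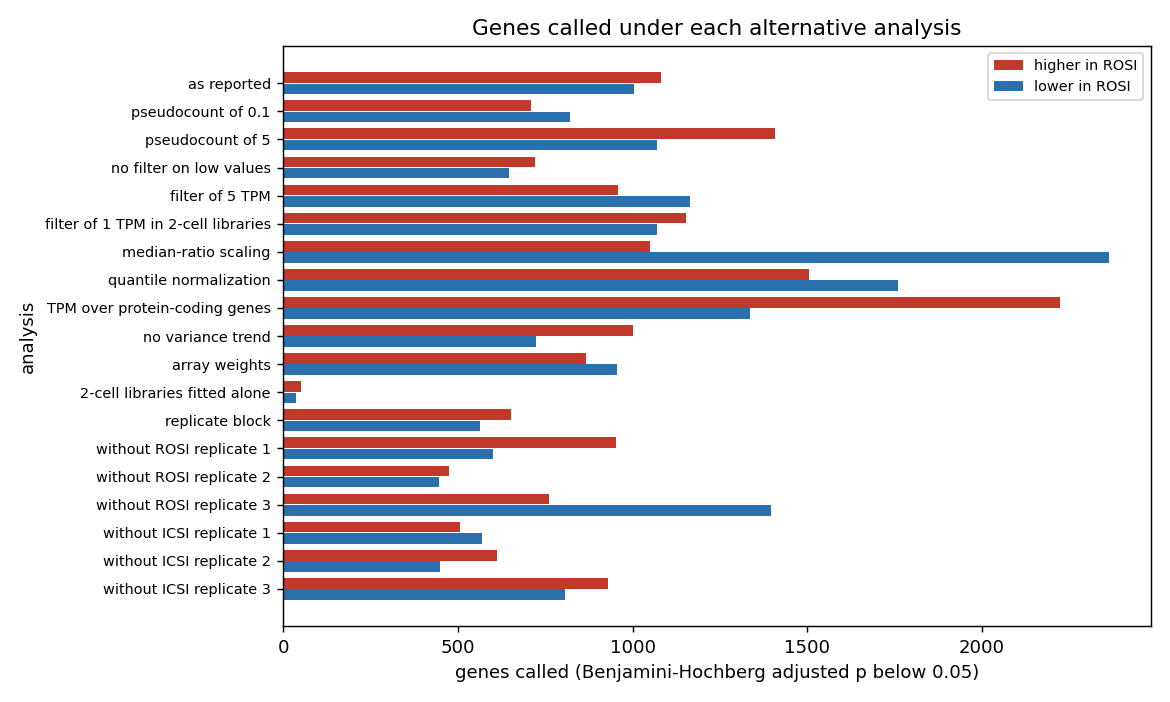
Number of genes called higher (red) and lower (blue) after ROSI in the analysis as reported and in 18 alternatives, with the bars starting at 0. The counts run from 49 higher and 36 lower with the 6 2-cell libraries fitted alone to 2222 higher with TPM over protein-coding genes and 2364 lower under median-ratio scaling.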

How the data were processed

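Values were deposited by the authors as TPM per gene (49585 genes), in 1 table of 11 libraries. Per the submitters' processing notes, fastp, Bowtie2, STAR 2.7.4a and featureCounts were used on mm10; the annotation and strand setting are not given in the sources used here. Reads were recovered from TPM steps and exon lengths of GENCODE M21 (47102 genes matched), with 87.94% to 90.67% of values within 0.01 of a whole number, and served to describe depth only. Another 186 entries share a symbol.

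Differences were fitted with limma 3.58.1 (R 4.3.3, variance trend) on log2(TPM + 1), with 4 group means over all 11 libraries, for 21938 genes of at least 1 TPM in 2 libraries, with Benjamini-Hochberg adjustment and a threshold of 0.05. Every adjusted p in the text is from limma. The script was tested on simulated data. All 11 value columns were used.

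The comparison, the 45 gene lists and the rules were chosen with earlier results of these data known. Named genes were up to 15 protein-coding genes per direction by log2 difference (at least 5 TPM in the higher group, no overlap of libraries), up to 8 abundant ones by mean TPM (difference of at least 0.58), up to 3 predicted and 3 noncoding ones, up to 4 passing members per list by p, and fixed genes of H3K27 methylation and the sex chromosomes. Genes named as the exception within a list count, those of the promoter paragraph and marker genes were chosen after their values were seen. The fit was repeated under 18 alternatives. Some results are not reported here.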

Additional observations from a re-analysis of the deposited data

How the results depend on the processing

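As reported, 1082 genes were higher, 1005 were lower and 460 of these calls differed at least 2-fold. With a pseudocount of 0.1 710 genes were higher, with a pseudocount of 5 97 differed at least 2-fold, and without a filter 721 were higher and 645 lower. A filter of 5 TPM left 280 genes at 2-fold. Median-ratio scaling gave 2364 lower genes, quantile normalization 1758, and TPM over protein-coding genes 2222 higher genes. The 2-cell libraries fitted alone gave 49 higher, 36 lower and 52 at 2-fold. Leaving out 1 library gave 474 to 952 higher genes, 444 to 1397 lower genes and 321 to 564 at 2-fold. Higher genes were 61.4% of the calls without ROSI replicate 1 and 35.2% without ROSI replicate 3.

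The groups share replicate numbers. Deviations of same-numbered libraries correlated at 0.0242, -0.0026 and -0.0146, so the numbers are not taken to pair the samples. With the replicate number as a block 652 genes were higher, 564 lower and 330 at 2-fold.

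Of the named genes 173 passed, 100 of them in each fit without 1 library and 19 under all 18 alternatives. With the 2-cell libraries fitted alone, 20 of the 173 passed, and all 173 had an unadjusted limma p under 0.05. The limma array weights, lower for libraries that deviate more, were 0.387 to 1.32 for 2-cell libraries and 0.738 to 2.66 for zygote libraries. Signs were reversed for 2 genes, neither of which passed. Suz12 was at 0.0671 (quantile) and 0.0057 (without ROSI replicate 1), and from -0.1753 to that value without 1 library. Ddx3y was at -0.003 (pseudocount of 5), -0.0049 (median-ratio), -0.1315 (quantile), -0.0626 (array weights), -0.0028, -0.0015 and -0.2647 (without ROSI replicate 2, ROSI replicate 3 and ICSI replicate 1), and up to 0.3213 without ICSI replicate 2. The cause of these changes was not tested. Low genes are limited by depth, most of all in ICSI replicate 1.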

Other observations

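The families in this paragraph were looked at after their values were seen, and their counts are descriptions. Class I histocompatibility genes, which present peptides to T cells, had 3 higher and no lower member among 10 tested. H2-K1 was at 17.7, 14.4 and 12.3 TPM after ROSI and 5.67, 6.17 and 7.41 TPM after ICSI and H2-Q7 at 38.96, 47.2 and 44.9 TPM after ROSI and 19.3, 29.5 and 26.2 TPM after ICSI, so that both groups were separate in each, and H2-D1 was at 5.68, 2.64 and 4.66 TPM after ROSI and 3.79, 6.43 and 6.04 TPM after ICSI, with overlapping groups. H2-Q genes are near-identical copies, and reads shared between them cannot be assigned with certainty. Acyl-CoA dehydrogenases, which start the oxidation of fatty acids, had 3 higher members of 8, with Acads at 13.7, 17.9 and 15.6 TPM after ROSI and 7.10, 11.1 and 9.26 TPM after ICSI and a median difference of 0.473. The translocase of the outer mitochondrial membrane had 2 higher members of 8, with Tomm70a at 32.7, 37.2 and 34.99 TPM after ROSI and 13.5, 22.2 and 21.99 TPM after ICSI and Tomm20 at 78.1, 93.7 and 85.3 TPM after ROSI and 58.3, 57.6 and 59.2 TPM after ICSI. Integrator subunits, which end transcription of small nuclear RNAs, had 3 higher members of 12. Of 335 genes named Zfp, 25 were higher and 15 lower.

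By chromosome, chromosome 7 had 110 higher (9.86%) and 64 lower (5.73%) of 1116 protein-coding genes tested, against 6.38% and 5.6% of all 13928. It is named as the extreme of all chromosomes in higher genes, followed by chromosome 18 with 8.21% and chromosome 13 with 8.06%. Counts by chromosome were not examined without 1 library or under other scalings.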
